A study of Mus musculus with 5 samples.

Results

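The 844 genes described here lie on mouse chromosome 11 and had a mean of at least 16 CPM (the usual unit of a gene's count relative to the total count of its library) over 5 small cell lung cancers. They are 844 of the 3011 chromosome 11 genes in a table of 54532 genes, and 835 of them code for proteins. The samples were flash-frozen lung tumours of mice with the genotype RPP, letters that the labels do not expand and that both groups share. By treatment label, 2 tumours were Vehicle and 3 were LSN, where the series names an Aurora A kinase inhibitor, and no dose, duration or age was stated in the sources used here. The series' own description speaks of primary cells, and the sample labels of tumours. The promoter or Cre line behind the model is likewise not stated. Since the labels do not tie tumours to animals, all spreads and p-values are those between these 5 samples, which may be technical. Chromosome and mean level chose the genes, and the chromosome was singled out with its LSN and Vehicle values known, so the shift below is described without a test.

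RNA levels of neighbouring genes can move together over a whole chromosome when the number of copies of that chromosome differs between cells, and tumours of this kind commonly gain and lose whole chromosomes. Mouse chromosome 11 is rich in genes. It carries Trp53, the gene of the p53 tumour suppressor that is inactivated in nearly all small cell lung cancers. It also carries Aurkb, the gene of a kinase of the same family as Aurora A. The files hold RNA counts alone, and DNA copy number was not analysed here, so whether gene dosage differed was not tested. Of 5 markers of small cell lung cancer and lung neuroendocrine cells, Chga, Insm1, Ncam1 and Syp were read in every tumour, the chromogranin gene Chga at 177 to 1540 CPM, and Neurod1 was at 38.9 and 11.4 CPM with Vehicle and at 0.783, 0.405 and 0 CPM in LSN replicates 1, 2 and 3.

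Chromosome 11 genes took a larger share of the RNA in 2 of the 5 tumours. The share of all counts was 8.98% and 9.03% in the Vehicle tumours. It was 11.6% in LSN replicate 1, 9.52% in replicate 2 and 11.8% in replicate 3. LSN replicates 1 and 3 stood above the other three tumours, and LSN replicate 2 lay nearer to the Vehicle pair. Total counts were between 17439049 and 19766604 per tumour, and the 95% Wilson interval of each share was at most 0.0297 percentage points wide, which covers counting error only.

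The same order appeared gene by gene. For each gene, log2(CPM + 1) in a tumour was set against its mean over the 5 tumours, and the median over the 844 members was set against the median over the 8965 genes of the 18 other autosomes at the same level. The Vehicle tumours had shifts of -0.23 (replicate 1) and -0.18 (replicate 2). The LSN tumours had 0.24 (replicate 1), -0.09 (replicate 2) and 0.26 (replicate 3). Because deviations are taken from the mean of the same 5 tumours, high tumours push the others below 0. Against the median of the 5 tumours in its place, the shifts were -0.070 and -0.11 with Vehicle and 0.19, -0.0094 and 0.17 with LSN, in order of replicate number. Members above the median of the other autosomes numbered 679 in LSN replicate 1 (80.5%) and 674 in LSN replicate 3 (79.9%), against 339 (40.2%) in LSN replicate 2, 204 (24.2%) in Vehicle replicate 1 and 228 (27.0%) in Vehicle replicate 2. The lower and upper quartiles of the members were 0.07 and 0.41 in LSN replicate 1 and 0.07 and 0.43 in LSN replicate 3. They were -0.40 and -0.01 in the first Vehicle tumour, -0.38 and 0.02 in the second, and -0.31 and 0.17 in LSN replicate 2. Large deviations were few, with 38 members 1 or more above in LSN replicate 1 (4.50%, against 3.39% on the other autosomes) and 30 in LSN replicate 3 (3.55%, against 2.65%).

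**Figure D1:**
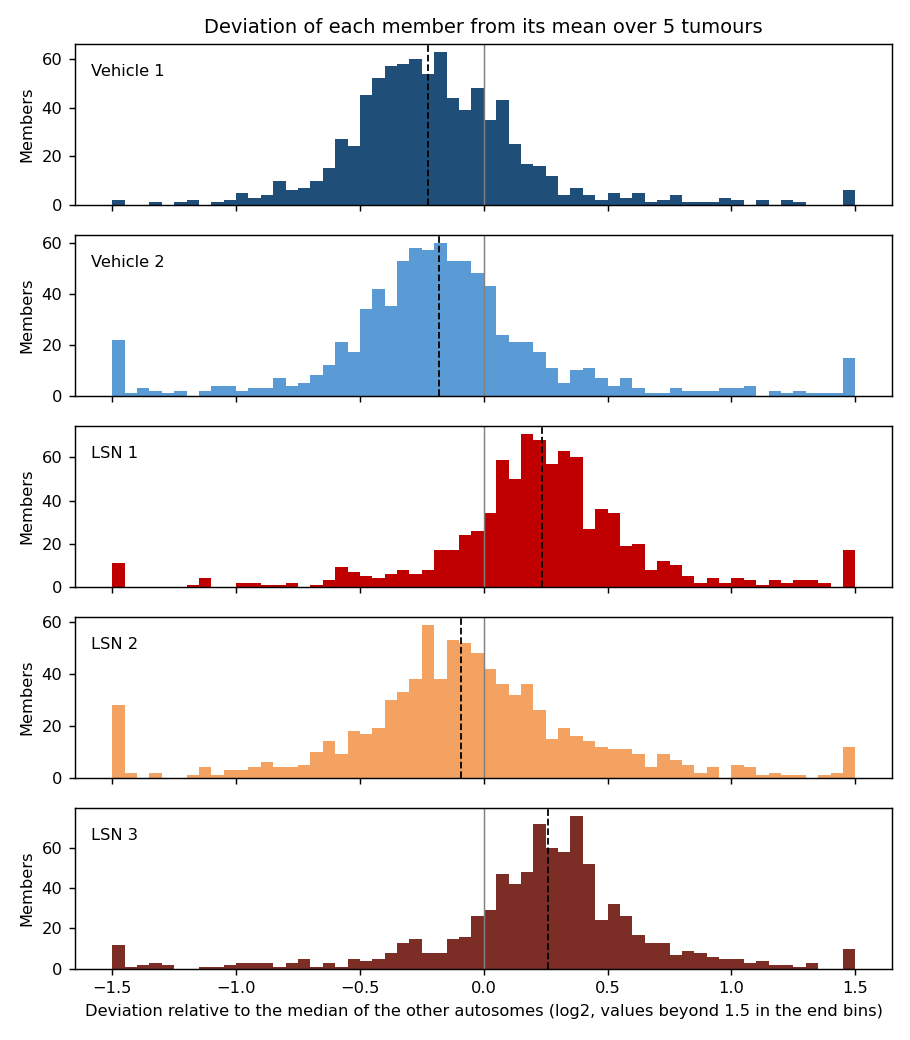
Histograms of the deviation of each of the 844 members from its mean over the 5 tumours, in log2 relative to the median of the other autosomes, 1 panel per tumour, with the number of members on the vertical axis, the grey line at 0 and the dashed line at the median. The bulk of the members lies right of 0 in LSN replicates 1 and 3 (medians 0.24 and 0.26) and left of 0 in both Vehicle tumours (medians -0.23 and -0.18).

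Differences between pairs of tumours do not depend on that shared mean. LSN replicate 1 was above Vehicle replicate 1 by 0.46, a median ratio of 1.38, and above Vehicle replicate 2 by 0.41, a ratio of 1.33. LSN replicate 3 was above them by 0.47 (ratio 1.38) and 0.42 (ratio 1.34). LSN replicate 2 was above Vehicle replicates 1 and 2 by 0.13 (ratio 1.095) and 0.08 (ratio 1.06). In these differences from Vehicle replicates 1 and 2, some of the 18 other autosomes lay farther from 0 than chromosome 11. They numbered 1 and 0 for LSN replicate 1, 7 and 8 for LSN replicate 2, and 1 and 2 for LSN replicate 3. The Vehicle pair differed by 0.02, and LSN replicates 1 and 3 by 0.02, whereas LSN replicate 1 exceeded LSN replicate 2 by 0.32. By group, the mean shift was 0.14 ± 0.20 (SD, n = 3) with LSN and -0.20 ± 0.03 (SD, n = 2) with Vehicle, and the difference of group means, taken gene by gene, had a median 0.33 above the other autosomes. The tumours thus lay close together within 2 pairs, the Vehicle pair and LSN replicates 1 and 3, with LSN replicate 2 between the pairs.

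Other chromosomes gave a scale for these values. In LSN replicate 1 and in Vehicle replicate 2, 0 of the 18 other autosomes lay as far from 0 as chromosome 11, the others running from -0.19 to 0.16 and from -0.16 to 0.14. In Vehicle replicate 1, 1 autosome lay farther, chromosome 14 at -0.37. In LSN replicate 3, chromosome 12 at 0.58, chromosome 4 at 0.36 and chromosome 9 at 0.33 were higher than chromosome 11, and in LSN replicate 2, 7 autosomes lay farther from 0, among them chromosome 12 at -0.73. Chromosome 12, whose 367 genes at this level were higher in one LSN tumour and lower in another, had a difference between the groups of -0.08. The difference between LSN and Vehicle was 0.33 on chromosome 11 and between -0.25 (chromosome 18) and 0.19 (chromosome 14) on the others. Chromosome X, not an autosome, reached 0.38 in LSN replicate 1.

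**Figure D2:**
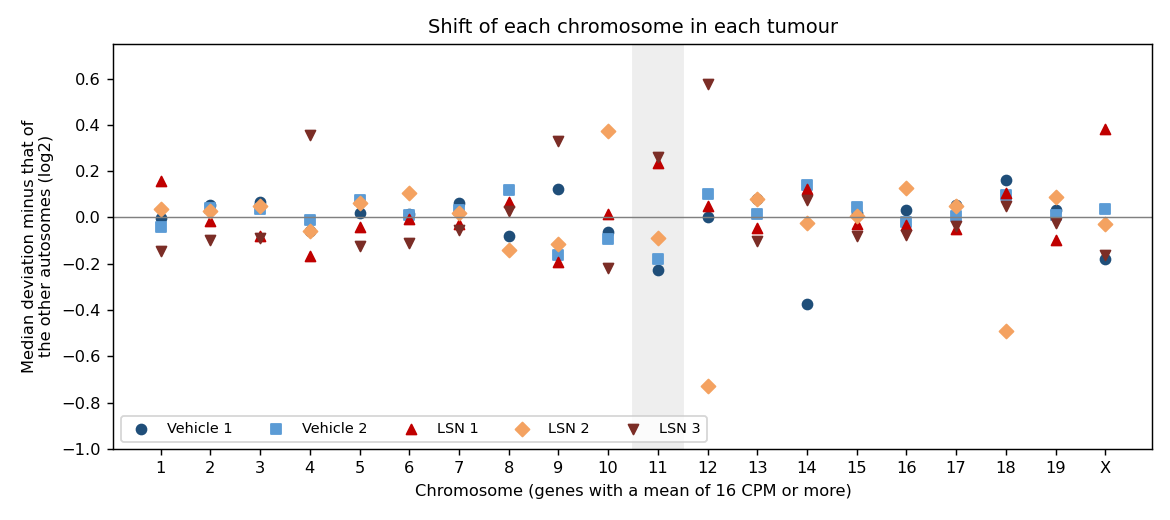
Shift of each chromosome (horizontal axis) in each tumour, as the median log2 deviation of its genes with a mean of 16 CPM or more minus that of the other autosomes (vertical axis), with 1 point per tumour and chromosome 11 shaded. On chromosome 11, LSN replicates 1 and 3 sit at 0.24 and 0.26, LSN replicate 2 at -0.09 and the Vehicle tumours at -0.23 and -0.18.

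The shift ran the length of the chromosome. The members were placed by gene start in 13 windows of 10 Mb, which held 16 to 117 members each. LSN replicate 1 was above both Vehicle tumours in 13 of 13 windows, with window medians from 0.13 to 0.35, and so was LSN replicate 3, from 0.15 to 0.31. The Vehicle tumours were below 0 in all 13 windows, from -0.31 to -0.11 in replicate 1 and from -0.24 to -0.04 in replicate 2. On the other autosomes, 195 windows held at least 16 genes, and the middle 90% of their medians ran from -0.16 to 0.21 in LSN replicate 1 and from -0.24 to 0.49 in LSN replicate 3. At the near end, from 0 to 10 Mb, the 62 members had medians of -0.18 and -0.24 with Vehicle and 0.27, -0.09 and 0.26 in LSN replicates 1, 2 and 3, and at the far end, beyond 120 Mb, the 38 members had -0.31 and -0.19 with Vehicle and 0.17, 0.00 and 0.31 with LSN. The first member, Sfi1, of the centrosome, starts at 3131850 and the last, the tubulin cofactor gene Tbcd, at 121451949 (mm10).

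LSN replicate 2 followed another course. It was above both Vehicle tumours in 9 of the 13 windows, and the other 4 were the windows from 10 to 50 Mb, which held 16, 31, 21 and 21 members and had medians of -0.26, -0.15, -0.29 and -0.23. Some of these orders were near ties. From 70 to 80 Mb LSN replicate 2 was at -0.1245 and Vehicle replicate 2 at -0.12547. From 80 to 90 Mb the same 2 tumours were at -0.15161 and -0.15595. From 40 to 50 Mb LSN replicate 2 was at -0.22997 and Vehicle replicate 1 at -0.22964. In the last 2 windows, from 110 Mb onward, the medians of LSN replicate 2 were 0.02 and 0.00, above both Vehicle tumours. In running medians of 25 neighbouring members, LSN replicates 1 and 3 were above both Vehicle tumours at all 820 positions, and LSN replicate 2 at 63.2% of them. The lowest running median of LSN replicate 1 was 0.04, around Birc5, and that of LSN replicate 3 was 0.05, around Ankrd40.

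**Figure D3:**
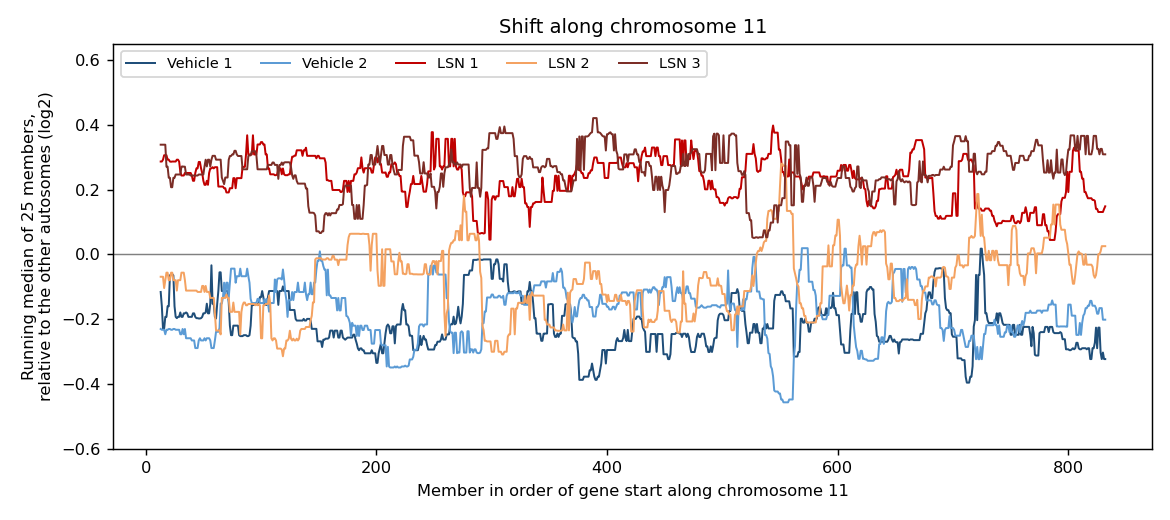
Running median over 25 neighbouring members of the log2 deviation relative to the other autosomes (vertical axis), with members in order of gene start from 1 to 844 (horizontal axis) and 1 line per tumour. The lines of LSN replicates 1 and 3 stay above 0 and above both Vehicle lines throughout, and the line of LSN replicate 2 crosses between them.

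A local departure lay around the Hoxb cluster, genes of transcription factors that pattern the body axis, which was singled out after its values were seen. Hoxb5 was at 120 and 49.4 CPM in the Vehicle tumours and at 583, 325 and 185 CPM in the LSN tumours, in order of replicate number as in all lists of values below. Hoxb8 was at 158 and 75.4 CPM against 660, 294 and 174 CPM, again with all 3 LSN tumours above both Vehicle tumours. Hoxb9 ran otherwise, at 106 and 28.7 CPM with Vehicle and 83.5, 79.0 and 17.4 CPM with LSN, so the groups overlapped. Values of the other Hoxb members are not printed. The lowest running median of Vehicle replicate 2, -0.46, was centred on Hoxb5 and the highest of LSN replicate 2, 0.28, on Hoxb7. Each run takes in 25 members and so also holds neighbours outside the cluster. These medians thus do not place the departure in the Hoxb genes themselves.

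Chromosome 11 genes with a mean of 5 to 16 CPM, not members, had smaller shifts, 0.14 in LSN replicates 1 and 3. Among the members, the shift was present at each level of expression. In LSN replicate 1 it was 0.16 for 142 members with a mean of 16 to 30 CPM, 0.23 for 226 members at 30 to 60 CPM, 0.23 for 235 at 60 to 120 CPM and 0.25 for 241 above that, each against genes of the other autosomes in the same range. In LSN replicate 3 the values were 0.23, 0.26, 0.27 and 0.23. Members with short, middle and long genes (357, 287 and 200 genes) had 0.24, 0.25 and 0.25 in LSN replicate 1 and 0.26, 0.23 and 0.30 in LSN replicate 3. The 415 members on the plus strand and the 429 on the minus strand had 0.24 and 0.23 in LSN replicate 1 and 0.27 and 0.26 in LSN replicate 3. At the edge of the rule, Epop and Osbp2 were just inside at means of 16.1 and 16.2 CPM, and Slfn2 and Map3k14 just outside at 15.98 and 15.97 CPM.

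The counts of members by comparison of LSN with Vehicle followed, and since the chromosome was chosen on this contrast they describe only. All 3 LSN tumours were above both Vehicle tumours for 223 of the 844 members (26.4%), against 450 of 8965 genes on the other autosomes (5.02%) and 5.64% of the 17906 genes tested. They were below both for 19 members (2.25%), against 9.57% on the other autosomes and 12.7% of all genes tested. Single LSN tumours differed: replicate 1 was above both Vehicle tumours for 595 members (70.5%), replicate 3 for 578 (68.5%) and replicate 2 for 349 (41.4%). In the same order, the shares were 27.6, 28.5 and 32.6% on the other autosomes and 28.8, 27.6 and 28.6% of all genes tested. Counts of separated members rest on column-sum scaling, and with scaling by TMM (trimmed mean of M-values) 323 were above and 15 below. Leaving out a tumour can only raise this count or keep it, since fewer tumours must then be apart. The count above was 388 without Vehicle replicate 1, 351 without Vehicle replicate 2 and 465 without LSN replicate 2. Shares on the other autosomes were counted with column sums and all tumours only. The counts with TMM or without a tumour thus have no share to be set against. Scaling also moved the other autosomes. In edgeR, 59.9% of their genes had a log2 fold change above 0 with TMM and 48.2% with column sums.

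By the quasi-likelihood test of edgeR, 0 of 844 members passed an adjusted p of 0.05 in either direction, against 0% of all genes tested (0 of 17906), with adjusted p-values of 0.9996 or more. With no adjustment and a p under 0.05, 93 members were higher with LSN (11.02%) and 5 lower (0.592%), against 1.06 and 3.21% of all genes tested. DESeq2 called 2 members higher, Rgs9 and Tex2, and 1 lower, Cavin1, against 0.0865 and 0.519% of the genes with an adjusted p, and had 82 members higher and 9 lower at an unadjusted p under 0.05, against 0.959 and 3.06% of the genes it tested. The edgeR count of 93 varied with the tumours used, at 53, 120 and 51 without LSN replicates 1, 2 and 3. Over all genes tested, in both directions, 764 reached this p with all tumours, and 1181, 722 and 505 without those replicates. The median log2 fold change of the members was 0.37, 0.47 and 0.32 without them, and 0.44 and 0.43 without Vehicle replicates 1 and 2. With scaling by column sums the count of 93 became 53. Of the 20 genes at this level with the smallest p among those higher with LSN, 18 lay on chromosome 11, and of the 20 lower, 1 did, where 8.32% of the genes at this level lie on that chromosome. In edgeR, 744 members had a log2 fold change above 0 (88.2%), against 59.9% of genes on the other autosomes, with medians of 0.40 and 0.07.

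The 2 members with the smallest p among those higher in every LSN tumour were Rgs9 and Tex2. Their promoters are shown because these genes lead the members that are higher with LSN. They run from 250 bases before to 50 after the start of transcription in RefSeq (GRCm38.p6), read 5′ to 3′ on the minus strand, at chr11:109298132-109298431 for Rgs9 and chr11:106612881-106613180 for Tex2. Capitals mark matches on either strand to 5 motifs, the CCAAT box (CCAAT), an E-box (CACGTG), an ETS motif (CCGGAAG), the TATA box (TATAAA) and an E2F motif (TTCGCGC). In both promoters no match overlapped another.
Rgs9: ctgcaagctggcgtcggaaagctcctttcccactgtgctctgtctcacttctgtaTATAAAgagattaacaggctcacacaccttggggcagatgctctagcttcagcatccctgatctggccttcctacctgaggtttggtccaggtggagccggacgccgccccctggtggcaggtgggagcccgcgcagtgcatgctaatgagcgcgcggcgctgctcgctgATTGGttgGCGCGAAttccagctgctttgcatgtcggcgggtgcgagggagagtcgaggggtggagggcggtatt
Tex2: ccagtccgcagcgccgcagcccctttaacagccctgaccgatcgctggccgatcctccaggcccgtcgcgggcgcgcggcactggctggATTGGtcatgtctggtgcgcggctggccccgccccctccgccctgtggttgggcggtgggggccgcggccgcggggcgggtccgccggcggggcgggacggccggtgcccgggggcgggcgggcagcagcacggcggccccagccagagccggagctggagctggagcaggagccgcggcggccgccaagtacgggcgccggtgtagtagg
Both hold a match to the CCAAT box on the opposite strand. That of Rgs9 also holds a match to the TATA box letters, at base 56 of 300, and, on the opposite strand, to the E2F motif. A CCAAT box was found in 38.7% of the 685 member promoters in the RefSeq table and in 38.5% of all 20848 matched promoters. The TATA box was found in 6.13% and 13.4%, the E2F motif in 4.96% and 1.93%, the E-box in 12.3% and 7.67% and the ETS motif in 20.1% and 10.9%. Against 7154 promoters of genes on the other autosomes at the same level the shares lay closer, those genes having 38.6% for the CCAAT box, 6.63% for the TATA box, 3.33% for the E2F motif, 10.1% for the E-box and 19.7% for the ETS motif. A match is a stretch of letters and says nothing of binding.

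Rgs9, a regulator that speeds the switching-off of G proteins in photoreceptors and striatal neurons, was at 69.0 and 42.7 CPM with Vehicle and at 162, 147 and 171 CPM with LSN. The groups did not overlap, and its log2 fold change was 1.61 ± 0.28 (SE; edgeR adjusted p = 0.9996, DESeq2 adjusted p = 0.00927). Tex2, a lipid-binding protein of the endoplasmic reticulum, was at 55.0 and 44.1 CPM against 102, 126 and 105 CPM, also apart, with a log2 fold change of 1.26 ± 0.25 (SE; edgeR adjusted p = 0.9996, DESeq2 adjusted p = 0.0477). Rnf213, a large ubiquitin ligase, was at 45.3 and 55.7 CPM against 102, 135 and 99.7 CPM. Rapgef6, a guanine nucleotide exchange factor for Rap proteins, was at 55.2 ± 7.34 CPM (SD, n = 2) with Vehicle and 98.3 ± 2.42 CPM (SD, n = 3) with LSN, also apart. Larp1, a binder of messenger RNAs that encode the translation machinery, was at 186 and 163 CPM against 289, 313 and 284 CPM, and Nsf, the ATPase that takes SNARE complexes apart, at 78.4 and 95.3 CPM against 188, 137 and 156 CPM. In all 6 genes the groups did not overlap, and LSN replicate 2 was the highest tumour in 3 of them, Tex2, Rnf213 and Larp1. Ddc, which makes serotonin and dopamine from their precursors in neuroendocrine cells, was at 1349 and 596 CPM with Vehicle and 1670, 1759 and 1561 CPM with LSN.

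**Figure D4:**
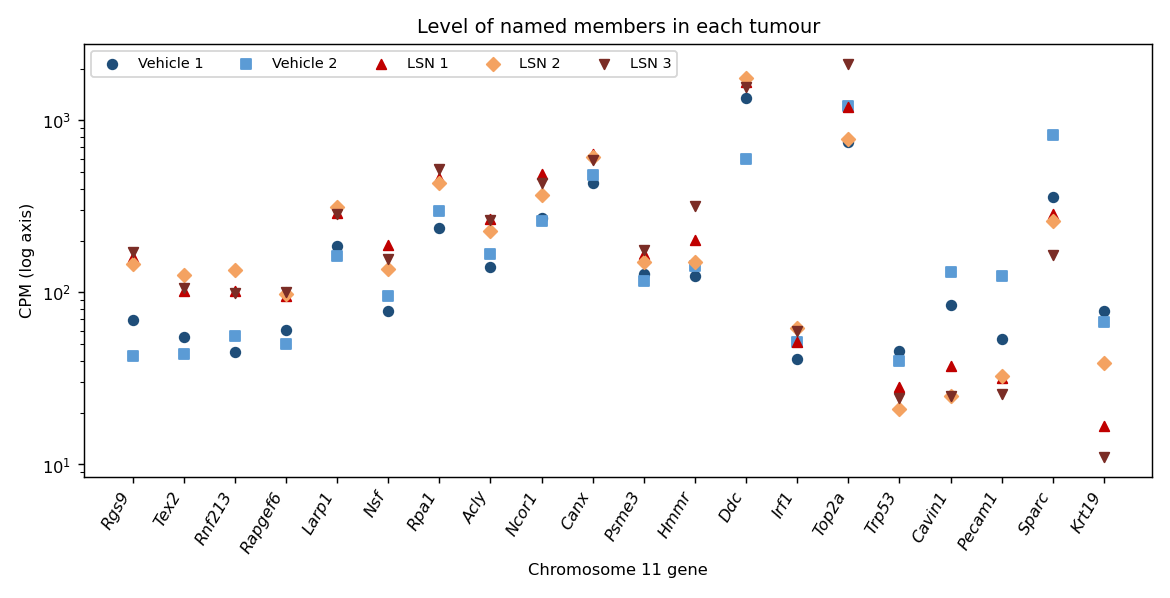
CPM on a log axis (vertical) of 20 named members (horizontal axis) in each of the 5 tumours, 1 point per tumour. From Rgs9 to Ddc all 3 LSN points lie above both Vehicle points, Irf1 and Top2a overlap, and from Trp53 to Krt19 the LSN points lie below.

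Mitosis genes on the chromosome were all above the other autosomes in the difference between groups, 29 of 29, with a median difference of 0.35, where 714 of all 844 members were above. Their medians by tumour were -0.27 and -0.14 with Vehicle and 0.19, -0.19 and 0.39 with LSN. Aurkb, the kinase of the chromosomal passenger complex, was at 91.4 and 121 CPM with Vehicle and 88.5, 69.7 and 183 CPM with LSN. Birc5, survivin, of the same complex, was at 87.2 and 126 CPM against 126, 59.5 and 198 CPM. Top2a, the topoisomerase that untangles replicated DNA, was at 749 and 1206 CPM against 1196, 778 and 2138 CPM. In these 3 genes LSN replicate 3 was highest and the groups overlapped. Hmmr, a spindle protein, was at 125 and 143 CPM against 202, 151 and 316 CPM, with all LSN tumours above both Vehicle tumours. In edgeR, 0 of the 29 genes passed an adjusted or an unadjusted p of 0.05. Over all genes tested, 0 of 17906 passed the adjusted p. The unadjusted p was reached by 1.06% higher and 3.21% lower of all genes tested. Among all members these shares were 11.02 and 0.592%. A count of 0 among 29 genes is near the shares over all genes tested.

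Replication and repair genes were above for 21 of 23, with a median difference of 0.36. Rpa1, a subunit of the single-strand DNA binding complex, was at 236 and 298 CPM with Vehicle and 462, 430 and 522 CPM with LSN, with groups apart. Brca1, of homologous recombination, was at 89.0 and 110 CPM against 127, 101 and 161 CPM, which overlapped. At an unadjusted p under 0.05, 5 of the 23 were higher and 1, Trp53, lower, against 93 and 5 of all 844 members and 1.06 and 3.21% of all genes tested. The 8 proteasome genes were all above, with a median of 0.38, and in 4 of them the LSN tumours were all higher than both Vehicle tumours, as in 26.4% of all members and 5.64% of all genes tested. Psme3, an activator cap of the proteasome, was at 128 and 116 CPM against 168, 151 and 177 CPM, and Psmb6, of the proteasome core, at 149 and 138 CPM against 214, 144 and 218 CPM, where LSN replicate 2 lay within the Vehicle range.

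Splicing genes were above for 19 of 25 (median 0.35) and chromatin and transcription regulators for 35 of 43 (median 0.28). Ncor1, a nuclear receptor corepressor, was at 269 and 262 CPM with Vehicle and 486, 370 and 435 CPM with LSN. H3f3b, a gene of the replacement histone H3.3, was at 1430 and 1143 CPM against 1396, 1235 and 3346 CPM, so that LSN replicate 3 alone stood apart. Hnrnph1, a splicing regulator, was at 778 and 1032 CPM against 871, 502 and 840 CPM, lowest in LSN replicate 2. Genes of the mitochondria and metabolism were above for 35 of 36 (median 0.36). Acly, which makes cytosolic acetyl-CoA, was at 140 and 167 CPM against 266, 227 and 264 CPM, with groups apart. Ribosomal protein and translation factor genes had the smallest median of the 10 functional lists, 0.10, with 13 of 16 above, and medians by tumour of -0.16 and -0.10 with Vehicle and 0.16, -0.20 and 0.23 with LSN.

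Interferon, MHC and immune signalling genes were above for 21 of 23 (median 0.44) but ordered the tumours differently, with medians of -0.19 and -0.26 with Vehicle and 0.23, 0.26 and 0.13 with LSN. Canx, calnexin, which folds class I molecules, was at 435 and 481 CPM with Vehicle and 636, 611 and 588 CPM with LSN, with groups apart. Stat3, a transcription factor of cytokine signalling, was at 226 and 138 CPM against 199, 416 and 221 CPM, and the antiviral ubiquitin ligase gene Trim25 at 82.7 and 68.3 CPM against 94.4, 169 and 106 CPM, both highest in LSN replicate 2. Irf1, an interferon-induced transcription factor, was at 40.8 and 51.6 CPM against 51.4, 62.1 and 60 CPM and overlapped. Neuronal and neuroendocrine genes were above for 25 of 32 (median 0.44), with a median of 0.58 in LSN replicate 1 and of 0.06 and 0.08 in LSN replicates 2 and 3. Hap1, huntingtin-associated protein, was at 580 and 788 CPM with Vehicle and 1101, 570 and 941 CPM with LSN.

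**Figure D5:**
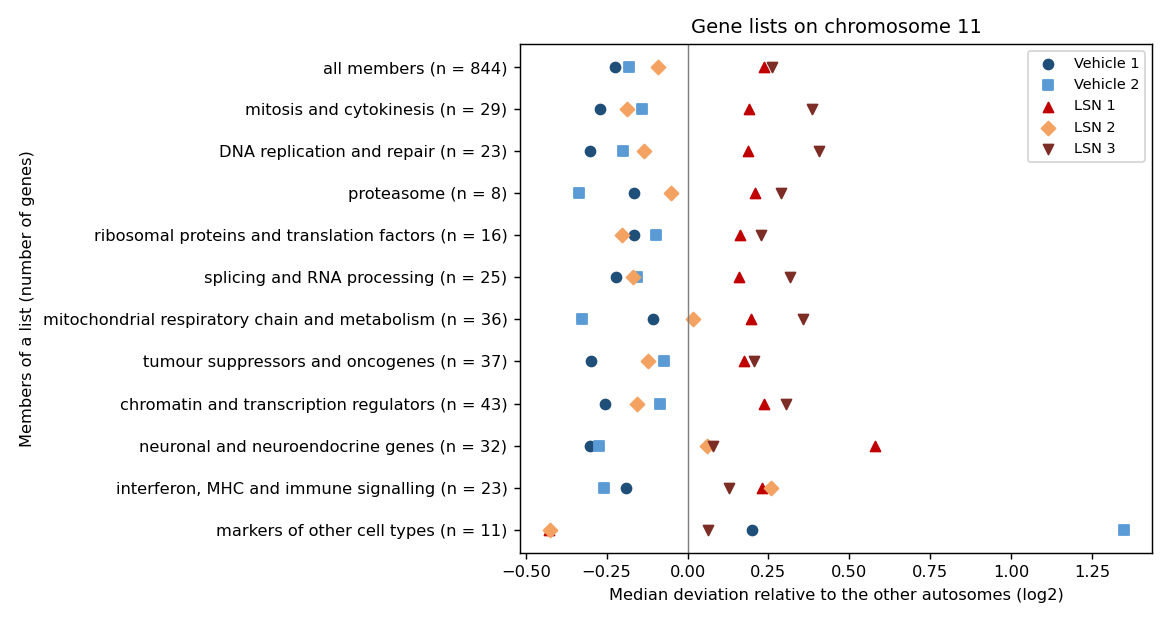
Median log2 deviation relative to the other autosomes (horizontal axis) of all members and of the members of each list (vertical axis, with the number of genes), 1 point per tumour. LSN replicates 1 and 3 lie right of 0 in all 10 functional lists, and the markers of other cell types run otherwise, with Vehicle replicate 2 at 1.35.

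Tumour suppressors and oncogenes on the chromosome were above for 35 of 37 (median 0.35), and Trp53 was one of the 2 exceptions. Trp53 (chromosome 11, 69580359 to 69591873) was at 45.9 and 40.1 CPM with Vehicle and 28.3, 20.9 and 24.5 CPM with LSN. Relative to the other autosomes it deviated by 0.51 and 0.38 with Vehicle and by -0.10, -0.51 and -0.28 with LSN, while in its window from 60 to 70 Mb the 96 members had medians of -0.16 and -0.20 with Vehicle and 0.21, -0.09 and 0.28 with LSN. Trp53 thus lay on the other side of 0 from its window in 4 tumours and on the same side, farther below, in LSN replicate 2. Its log2 fold change was -0.72 ± 0.26 (SE; edgeR adjusted p = 0.9996). Counts per gene do not tell which exons were read. Nf1, the neurofibromin gene, was at 90.03 and 118 CPM against 157, 96.2 and 123 CPM and Egfr, a growth factor receptor, at 33.8 and 6.19 CPM against 10.02, 29.0 and 102 CPM. Both overlapped.

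The 19 members with all LSN tumours below both Vehicle tumours held 6 of the 11 members that were listed as markers of other cell types. The rest of the 11 did not separate in this way. Of all members 2.25% did, and of all genes tested 12.7%. Cavin1 and Cbr2, given below, are not among the 11. Cavin1, a coat protein of caveolae, was at 84.9 and 132 CPM with Vehicle and 37.4, 24.8 and 24.9 CPM with LSN, with a log2 fold change of -1.82 ± 0.32 (SE; edgeR adjusted p = 0.9996, DESeq2 adjusted p = 0.0110). Pecam1, an adhesion molecule of endothelium, was at 53.9 and 124 CPM against 31.8, 32.5 and 25.6 CPM. Sparc, a matrix protein of fibroblasts, was at 361 and 828 CPM against 287, 259 and 166 CPM, Col1a1, a collagen, at 198 and 412 CPM against 152, 179 and 89.3 CPM, and Krt19, a keratin of simple epithelia, at 77.8 and 67.4 CPM against 16.7, 38.9 and 11.1 CPM. Scgb3a1, a secretoglobin of airway cells, was at 579 and 203 CPM with Vehicle and 182, 0.506 and 33.1 CPM with LSN, and Cbr2, a carbonyl reductase of lung epithelium, at 497 and 231 CPM against 124, 4.55 and 38.9 CPM.

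Markers of other cell types were counted over the whole table in the same way, where 12.7% of all genes tested were below both Vehicle tumours in every LSN tumour. Of 20 lung epithelium markers in the table, 15 were lower in every LSN tumour, and their summed level was 7891 and 9420 CPM with Vehicle and 2264, 431 and 1303 CPM with LSN. For endothelium this held for 11 of 14 markers, with sums from 759 to 965 CPM against 271 to 696 CPM, and for fibroblasts and smooth muscle for 10 of 14, with sums from 1302 to 2738 CPM against 742 to 1327 CPM. In red blood cells it held for 5 of 8 markers (sums of 696 to 802 against 10.8 to 318 CPM), in neutrophils for 4 of 10 (29.6 to 60.2 against 4.81 to 15.7 CPM, Mpo at 0 in all tumours) and in muscle for 2 of 10, with 2 others above both Vehicle tumours (47.0 to 157 against 40.6 to 109 CPM). At shares under that of all genes, it held for 2 of 19 macrophage markers (1146 to 4950 against 852 to 1866 CPM), 1 of 15 T and NK cell markers (15.4 to 43.5 against 15.4 to 40.1 CPM), 1 of 10 of B and plasma cells (472 to 2462 against 100.4 to 1151 CPM) and 0 of 6 of keratinocytes (7.40 to 13.7 against 8.15 to 23.7 CPM). In bulk tumour, fewer cells of a type and less RNA per cell cannot be told apart. The part of these cell types in the chromosome 11 shift of each tumour was not tested.

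Members with the largest single-tumour deviations were mostly genes read in some tumours and near 0 in others. Nsg2, a neuronal endosomal protein, was at 39.8 and 306 CPM with Vehicle and 213, 11.9 and 1.18 CPM with LSN. Tenm2, a teneurin of synapses, was at 189 CPM in LSN replicate 3 and at 0.354 to 9.04 CPM elsewhere. Cldn7, a tight junction protein, was at 81.2 and 15.6 CPM against 4.76, 174 and 155 CPM. Gsdma, a pore-forming gasdermin, was at 47.3 and 0.0573 CPM against 0.392, 47.5 and 4.46 CPM. Lhx1, a homeobox transcription factor, was at 9.66 and 47.1 CPM against 56.8, 0.101 and 0.769 CPM, and Srcin1, an adaptor of Src signalling, at 14.2 and 89.2 CPM against 74.2, 1.21 and 0.615 CPM. In Lhx1 and Srcin1, Vehicle replicate 2 and LSN replicate 1 were the high tumours, so these genes divided the tumours across the treatment label and not as the chromosome's median did.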

How the data were processed

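The deposited table holds raw read counts by gene for 5 tumours. Per the labels' protocols, libraries were not stranded, reads were mapped to mm10 with STAR and DESeq2 was used for differential expression. For the counting program and the annotation, no source used here gives a name. Without strand, overlapping antisense genes cannot be told apart, and near-identical genes such as the globin genes may share reads. Gene positions are those of the deposited table, in which 3 members carry symbols turned into dates and so fell outside the gene lists.

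Groups came from the treatment label. Members, gene lists (10 functional, 10 of cell type markers) and tests were chosen with earlier results of these data known. CPM was computed on column sums, and shifts used a pseudocount of 1 CPM. The LSN and Vehicle comparison used edgeR 4.0.16 (robust quasi-likelihood fit, TMM, filterByExpr at 10 counts and 15 in total, 17906 genes) in R 4.3.3, with Benjamini-Hochberg adjustment. The code was also run on simulated counts that gave every gene the same dispersion, which does not measure its power in these tumours. A fold change's SE is its size divided by the square root of F. DESeq2 1.42.0 was an alternative, as were other scalings, filters, references and the omission of each tumour.

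Named genes were, by rule, the 6 members per direction with the smallest edgeR p and groups apart, leading members of each list by level or p, the 3 with most counts, the 3 per tumour with the largest deviations each way, the first and last member, genes at the 16 CPM edge, and 14 fixed genes, of which Erbb2 was below 16 CPM. Not all of them are printed. Genes outside it are Hoxb5, Hoxb7, Hoxb8, Hoxb9 and Ankrd40, named after their values were seen. A count of 3, the floor, was 0.152 to 0.172 CPM, and covers counting error only.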

Additional observations from a re-analysis of the deposited data

How the results depend on the processing

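Of 138 recomputed values, 113 were classed as the same. For shifts this meant the same direction and a change within the SD between tumours of the group, 0.03 for Vehicle and 0.20 for LSN. The difference between groups was held to a pooled SD. The LSN limit is nearly as wide as the shifts of LSN replicates 1 and 3, so it says little of their steadiness. LSN replicate 3 was classed as the same at 0.17, where the main value was 0.26. For counts and percents it meant equality or a change within a set factor. None of the shifts turned direction, and counts and percents have no direction to turn. The shift moved beyond the spread of the Vehicle pair when the reference was the mean of the other 4 tumours (-0.28 and -0.23 in Vehicle replicates 1 and 2) or the median of the 5 (-0.070 and -0.11, with 0.19, -0.0094 and 0.17 in LSN replicates 1, 2 and 3). This follows from the reference itself, since the shift is relative to it. The difference between LSN and Vehicle ranged from 0.27 to 0.43 without each tumour in turn and from 0.32 to 0.34 under the other settings. LSN replicate 2 was above both Vehicle tumours in 61.5 to 85.7% of windows.

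DESeq2 called 105 genes in all, 2 members higher and 1 lower, where edgeR called 0 of each, also with other scalings or filters, with a fit that was not robust, or with any 1 tumour left out. Unadjusted p under 0.05 was reached by 764 genes in edgeR and 1218 in DESeq2. Members higher at an unadjusted p under 0.05 numbered 53 with column sums in place of TMM and 25 to 120 with each tumour left out, and members lower numbered 9 with DESeq2 and 1 to 15 without each tumour. Members above both Vehicle tumours in every LSN tumour numbered 323 with TMM, 164 at a mean of 50 CPM or more and 265 to 465 without each tumour, and those below numbered 53 at a mean of 5 CPM or more, 11 at 50 CPM or more, and 27 to 63 without each tumour. With a tumour left out, fewer tumours must be apart, so these counts of members above or below can only rise or stay. They were not remade on the other autosomes, so whether they changed more on chromosome 11 than elsewhere was not tested. A mean of 50 CPM or more leaves 537 members to count. The causes of the other changes were not tested. No paired analysis was possible because the labels carry no replicate numbers, and those used here were given in accession order and only name the tumours.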

Other observations

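Chromosome 11 genes below the level of the members had shifts nearer to 0 in each tumour. The 220 genes with a mean of 5 to 16 CPM had shifts of -0.06 and -0.01 in the Vehicle tumours and 0.14, -0.02 and 0.14 in LSN replicates 1, 2 and 3, each against genes of the other autosomes in the same range. The 234 genes with a mean of 1 to 5 CPM had shifts of -0.13 and -0.10 with Vehicle and 0.11, 0.03 and 0.18 with LSN, where the pseudocount of 1 CPM narrows differences. Erbb2, a receptor tyrosine kinase gene on the same chromosome and below 16 CPM, was at 8.31 and 13.0 CPM with Vehicle and 4.87, 1.47 and 2.05 CPM with LSN, so all 3 LSN tumours were below both Vehicle tumours.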
